A study of Mus musculus with 8 samples.

Results

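The cathepsins examined were 9 genes of the 18193 that the probe annotation names on the array: Ctsa, Ctsb, Ctsc, Ctsd, Ctsh, Ctsk, Ctsl, Ctss and Ctsz. Members were all probe sets whose only annotated symbol was one of these, which gave 20 of the 45101 probe sets. Ctsd, Ctsk and Ctss had 1 probe set each and the other 6 genes had more. A probe set entered the tests if its log2 signal exceeded the array's median signal on 2 or more of the 8 arrays, and 18 of the 20 did. The exceptions were Ctsc 1446834_at, above the median on 1 array, and Ctsl 1457724_at, above it on 0 arrays.

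Cathepsins are the proteases of endosomes and lysosomes. They are made as inactive precursors, carried to the lysosome largely by mannose 6-phosphate receptors, activated at low pH, and held in check outside it by cystatins and stefins. Most are papain-like cysteine proteases, whereas cathepsin D is an aspartic protease and cathepsin A a serine carboxypeptidase. In skin they serve antigen presentation in immune cells, turnover of matrix in the dermis, and differentiation of epidermis and hair follicle.

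The skin came from the back of Balb/c mice in a dermatitis model driven by DNCB (dinitrochlorobenzene), a small reactive chemical that sensitizes skin on contact. The DNCB+HY209 group (3 arrays, titled DNCB_HY209(+)) had 15 days of DNCB and a 5% HY209-PEG gel on the last 7 of them, HY209 being an agonist of the G protein-coupled receptor GPCR19. The DNCB group (3 arrays, titled DNCB_HY209(-)) had the same 15 days of DNCB with vehicle on the last 7. The sham group (2 arrays) is given as untreated in its titles and source names, yet its protocol fields describe DNCB treatment, so each comparison against sham rests on the titles. Neither the age and sex of the mice nor whether each array stands for its own animal is stated in the sources used here. The p-values therefore reflect only how far these samples spread, and that spread may be technical. In whole skin, fewer cells of a type and less RNA per cell cannot be told apart.

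Array medians ran from 4.07 to 4.22 on the log2 scale. Signals correlated with r of 0.965 to 0.986 between arrays of a group. The mean log2 signal of 7 bacterial spike-in probe sets was lowest on DNCB array 2 (9.67) and highest on sham array 2 (12.01), and the Gapdh signal ratio of 3' over 5' probe sets, a measure of RNA degradation, was highest on DNCB array 3 (7.35) against 2.10 to 4.46 on the others. Keratinocyte markers averaged 9.71 to 11.22 on the log2 scale in DNCB+HY209, 10.37 to 11.26 in DNCB and 10.44 to 10.51 in sham, a high level on every array of this skin. This mean hides opposite differences of single genes. In DNCB against sham they ran from -2.82 for Krt15 (limma, adjusted p = 0.0423) to 1.92 for Krt1 (adjusted p = 0.139).

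In DNCB skin 1 cathepsin passed the test against sham. Ctss rose 7.03-fold, and 1 of 18 probe sets (0 lower) passed an adjusted p of 0.05, beside 0.956% of all 24675 probe sets tested. Ctsc, at 5.97-fold on its brightest probe set, lay just outside the threshold. By the brightest probe set of each gene, 8 of the 9 genes had a mean above sham and Ctsk had one below it. The median log2 difference of the 9 genes was 0.90, beside 0.15 over all 12420 genes. Against DNCB, 0 cathepsin probe sets differed in DNCB+HY209 skin by limma's test, and 0 had an unadjusted p under 0.05.

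**Figure D1:**
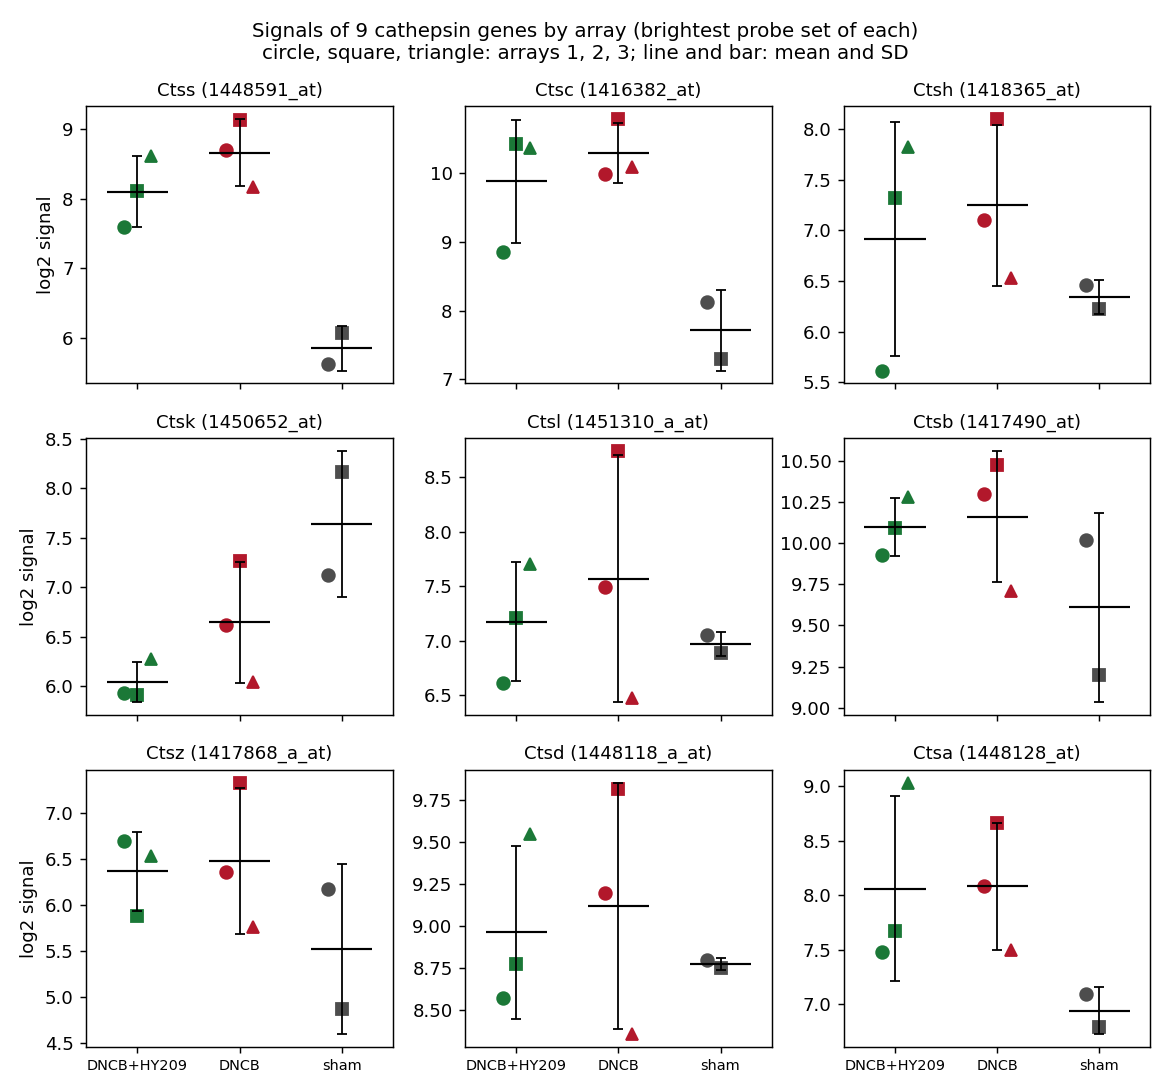
Log2 signal of each cathepsin gene, by its brightest probe set, on every array of DNCB+HY209 (green), DNCB (red) and sham (grey). Circles, squares and triangles are arrays 1, 2 and 3, lines are group means and bars are SDs. Ctss and Ctsc lie above sham on all arrays of both DNCB groups, and Ctsk in DNCB+HY209 lies below both sham arrays; each panel has its own vertical scale.

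Ctss encodes cathepsin S, the protease that trims the invariant chain from MHC class II molecules in antigen-presenting cells. Its only probe set, 1448591_at, had log2 signals of 7.60, 8.10 and 8.61 in DNCB+HY209, 8.70, 9.13 and 8.16 in DNCB, and 5.63 and 6.07 in sham. Every array of both DNCB groups lay above both sham arrays, and the DNCB+HY209 and DNCB arrays overlapped. The means were 8.10 ± 0.51 in DNCB+HY209 (SD, n = 3), 8.66 ± 0.48 in DNCB (n = 3) and 5.85 ± 0.32 in sham (n = 2). In DNCB against sham the log2 difference was 2.81 (SE 0.37, 95% interval 1.97 to 3.65, adjusted p = 0.0172), which placed Ctss 44th of the 24675 probe sets by the size of its moderated t. In DNCB+HY209 against sham the log2 difference was 2.25 (4.77-fold, interval 1.41 to 3.09, adjusted p = 0.0550), and without DNCB+HY209 array 1 it was 2.51 (adjusted p = 0.0187). Ctss was thus called in DNCB skin alone, but the difference between both DNCB groups was -0.56 with an interval of -1.31 to 0.19, which did not pass the test.

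The call of Ctss in DNCB skin depended on single arrays although its size did not. The log2 difference stayed between 2.58 and 3.06 with any 1 array left out, while the adjusted p was 0.115 without sham array 1, 0.0969 without sham array 2 and 0.0703 without DNCB array 1. Adjusting for spike-in level gave a difference of 2.34 (adjusted p = 0.0942), and leaving out DNCB array 2 together with sham array 2, which had the lowest and highest spike-in signal, gave 2.80 (adjusted p = 0.181).

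The sequence before the Ctss start is shown because Ctss was the cathepsin that rose, with those of Ctsc and Ctsk for comparison, the genes with the next highest and the lowest mean difference from sham. They are the 250 bases before the annotated start in RefSeq on GRCm38.p6, read 5′ to 3′ on the gene's strand, which is the plus strand for all of them. Capitals mark matches on either strand to TTTC followed after any 2 bases by TTTC (the core of an interferon-stimulated response element), TTCNNNGAA (a STAT, or GAS, motif), AGGAAGT (a PU.1 core) or CACGTG (an E-box of the kind bound by the lysosome regulators TFEB and TFE3).
Ctss, chr3:95526536-95526785: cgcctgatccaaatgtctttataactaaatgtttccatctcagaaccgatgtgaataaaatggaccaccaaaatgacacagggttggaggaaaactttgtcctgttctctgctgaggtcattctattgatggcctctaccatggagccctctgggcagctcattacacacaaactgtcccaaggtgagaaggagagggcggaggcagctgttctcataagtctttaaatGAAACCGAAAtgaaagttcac
Ctsc, chr7:88277835-88278084: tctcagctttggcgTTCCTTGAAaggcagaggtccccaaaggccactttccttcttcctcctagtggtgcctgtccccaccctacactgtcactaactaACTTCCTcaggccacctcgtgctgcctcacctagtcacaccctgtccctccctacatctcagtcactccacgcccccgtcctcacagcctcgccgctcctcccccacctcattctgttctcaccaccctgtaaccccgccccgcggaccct
Ctsk, chr3:95498960-95499209: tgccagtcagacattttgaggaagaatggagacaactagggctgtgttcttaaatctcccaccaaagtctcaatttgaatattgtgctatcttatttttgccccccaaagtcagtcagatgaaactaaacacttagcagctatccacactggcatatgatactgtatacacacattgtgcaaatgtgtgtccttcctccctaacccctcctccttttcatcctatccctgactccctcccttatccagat
The Ctss window held 1 match to the paired TTTC motif, at bases -21 to -12 from the start, a motif found in 2.98% of the 32851 promoter windows of that length in the table. In the Ctsc window 1 match to TTCNNNGAA lay at -236 to -228 (7.02% of all windows) and 1 to AGGAAGT at -151 to -145 (7.69%), and these matches did not overlap. The Ctsk window held no match to these letters. CACGTG stood in 3 of the 8 cathepsin windows, those of Ctsl, Ctsd and 1 of the windows of Ctsa, beside 6.02% of all windows. The table matched 7 of the 9 genes, not Ctsb or Ctsh. A match is a description of letters and no evidence of binding.

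Ctsc encodes cathepsin C, or dipeptidyl peptidase I, which activates the granule serine proteases of neutrophils, mast cells and cytotoxic lymphocytes. Its brightest probe set, 1416382_at, gave log2 signals of 8.85, 10.42 and 10.37 in DNCB+HY209, 9.99, 10.79 and 10.09 in DNCB, and 8.12 and 7.30 in sham. All arrays of both DNCB groups lay above sham, and DNCB+HY209 array 1 was the closest to it. Against sham the log2 difference was 2.58 in DNCB (SE 0.49, interval 1.47 to 3.69, adjusted p = 0.0513) and 2.17 in DNCB+HY209 (interval 1.05 to 3.28, adjusted p = 0.120). Without DNCB+HY209 array 1, whose group enters the shared estimate of the spread, the adjusted p for DNCB against sham was 0.00861, and it passed the threshold under 5 of the other alternatives tried, among them quantile normalization (0.0326). It did not pass under the rest: the difference was 1.697 (adjusted p = 0.191) with spike-in adjustment, 2.99 (0.132) without sham array 1, 2.17 (0.328) without sham array 2, and 1.92 (0.523) with DNCB array 2 and sham array 2 both omitted. Without the same array the difference in DNCB+HY209 against sham was 2.68 (adjusted p = 0.0138).

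A further probe set of Ctsc, 1437939_s_at, had log2 signals of 4.23, 6.57 and 6.44 in DNCB+HY209, 5.89, 7.07 and 5.66 in DNCB, and 3.11 and 3.57 in sham. Both sham signals lay below their array medians, so it entered the test only through the DNCB groups, and its log2 difference in DNCB against sham of 2.87 (SE 0.67, adjusted p = 0.0990) is approximate. The dim probe set 1446834_at, which was not tested, averaged 3.93 ± 0.36 in DNCB+HY209 (SD, n = 3), 3.89 ± 0.14 in DNCB (n = 3) and 3.22 ± 0.02 in sham (n = 2). The sign of the difference from sham was therefore the same for all 3 Ctsc probe sets in both DNCB groups.

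Ctsh encodes cathepsin H, an aminopeptidase that is also active in lung epithelium. Probe set 1418365_at had log2 signals of 5.62, 7.32 and 7.82 in DNCB+HY209, 7.11, 8.10 and 6.53 in DNCB, and 6.46 and 6.23 in sham. The DNCB arrays lay above sham, by a narrow margin for array 3, whereas DNCB+HY209 array 1 was the lowest of all 8. The log2 difference in DNCB against sham was 0.90 (SE 0.63, adjusted p = 0.476). The other probe set, 1443814_x_at, ran from 6.01 to 7.58 in DNCB+HY209, 6.48 to 7.44 in DNCB and 5.88 to 6.07 in sham, with a log2 difference of 0.95 in DNCB against sham (adjusted p = 0.345).

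Ctsz encodes cathepsin Z, a carboxypeptidase of monocytes and macrophages. Probe set 1417868_a_at gave 6.70, 5.88 and 6.54 in DNCB+HY209, 6.36, 7.33 and 5.77 in DNCB, and 6.18 and 4.87 in sham on the log2 scale. The sham arrays were far apart and overlapped both DNCB groups. Log2 differences of its 3 probe sets in DNCB against sham were 0.96, 0.77 and 0.46, with adjusted p of 0.379 for 1417868_a_at, 0.319 for 1417869_s_at and 0.573 for 1417870_x_at.

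Ctsk had a mean difference from sham opposite in sign to that of the other 8 genes. Cathepsin K is a collagen-degrading protease best known from osteoclasts and also made by dermal fibroblasts. Its log2 signals were 5.93, 5.91 and 6.27 in DNCB+HY209, 6.62, 7.26 and 6.04 in DNCB, and 7.12 and 8.16 in sham. All DNCB+HY209 arrays lay below both sham arrays, while DNCB array 2 overlapped sham and DNCB array 3 overlapped DNCB+HY209. The means were 6.04 ± 0.20 in DNCB+HY209 (SD, n = 3), 6.64 ± 0.61 in DNCB (n = 3) and 7.64 ± 0.74 in sham (n = 2). The log2 difference from sham was -1.60 in DNCB+HY209 (SE 0.40, interval -2.51 to -0.70, adjusted p = 0.141) and -0.999 in DNCB (interval -1.91 to -0.09, adjusted p = 0.299), and that between DNCB+HY209 and DNCB was -0.61 (SE 0.36, interval -1.42 to 0.21). None of the 3 passed the test. With the Gapdh ratio as a covariate the DNCB+HY209 difference from sham was -1.88 (adjusted p = 0.0456), and without sham array 2 it was -1.08 (adjusted p = 0.566).

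In the mouse annotation Ctsk and Ctss are neighbouring protein-coding genes on chromosome 3. Their log2 differences in DNCB against sham were -0.999 for Ctsk and 2.81 for Ctss. Fibroblast markers were read beside Ctsk. The mean log2 signal of 12 such genes, none of them below the array median on all arrays, was 7.61 to 7.98 in DNCB+HY209, 8.02 to 9.04 in DNCB and 7.76 to 8.05 in sham. In DNCB+HY209 against DNCB their median log2 difference was -0.94, and limma called 0 of 12, with 5 lower at an unadjusted p under 0.05 (1.1% of all genes). In DNCB against sham, where Ctsk was lower, limma called Pdgfrb (3.18, adjusted p = 0.0282) and Col5a1 (2.17, adjusted p = 0.0423) higher. Col1a2, Dcn and Fap had means below sham there (-0.62, -0.69 and -0.73) and did not pass the test. Their part in the values of Ctsk was not tested.

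Ctsl and Ctsb encode the endopeptidases cathepsin L, whose loss in mice disturbs hair follicles and epidermis, and cathepsin B, which is also a carboxydipeptidase. Ctsl 1451310_a_at had log2 signals of 6.61, 7.21 and 7.70 in DNCB+HY209, 7.49, 8.74 and 6.47 in DNCB, and 7.05 and 6.89 in sham. The DNCB arrays spanned the whole range of the other groups. Its log2 difference in DNCB against sham was 0.60 (SE 0.57, adjusted p = 0.593). The probe set left out of the test, 1457724_at, averaged 2.36 in DNCB+HY209, 2.51 in DNCB and 2.51 in sham, well below the array medians.

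Ctsb had 5 probe sets. The brightest, 1417490_at, gave log2 signals of 9.93, 10.09 and 10.28 in DNCB+HY209, 10.30, 10.47 and 9.71 in DNCB, and 10.02 and 9.20 in sham, with overlap among all groups. Its log2 difference in DNCB against sham was 0.55 (SE 0.31, adjusted p = 0.403). Probe sets 1448732_at, 1417491_at and 1417492_at had differences of 0.37 to 0.90, so 4 of the 5 were above 0. The fifth, 1444987_at, disagreed with them. It had log2 signals of 5.27, 4.98 and 4.26 in DNCB+HY209, 4.82, 4.48 and 4.89 in DNCB, and 4.94 and 5.54 in sham, and its difference in DNCB against sham was -0.51 (adjusted p = 0.439) with no overlap.

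The aspartic protease cathepsin D, encoded by Ctsd, takes part in the activation of transglutaminase in epidermis. Its log2 signals were 8.57, 8.77 and 9.54 in DNCB+HY209, 9.19, 9.81 and 8.35 in DNCB, and 8.80 and 8.75 in sham. The sham arrays lay inside the range of both DNCB groups. The log2 difference in DNCB against sham was 0.35 (SE 0.43, adjusted p = 0.678).

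Ctsa encodes cathepsin A, which also protects beta-galactosidase and neuraminidase 1 in the lysosome. Probe set 1448128_at had log2 signals of 7.48, 7.67 and 9.03 in DNCB+HY209, 8.08, 8.66 and 7.49 in DNCB, and 7.09 and 6.79 in sham. Both DNCB groups lay above sham on all arrays. The log2 difference against sham was 1.12 in DNCB+HY209 (SE 0.49, adjusted p = 0.264) and 1.14 in DNCB (SE 0.49, adjusted p = 0.316). The dimmer probe set 1458466_at had differences of -0.33 in DNCB+HY209 and -0.15 in DNCB against sham, opposite in sign.

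**Figure D2:**
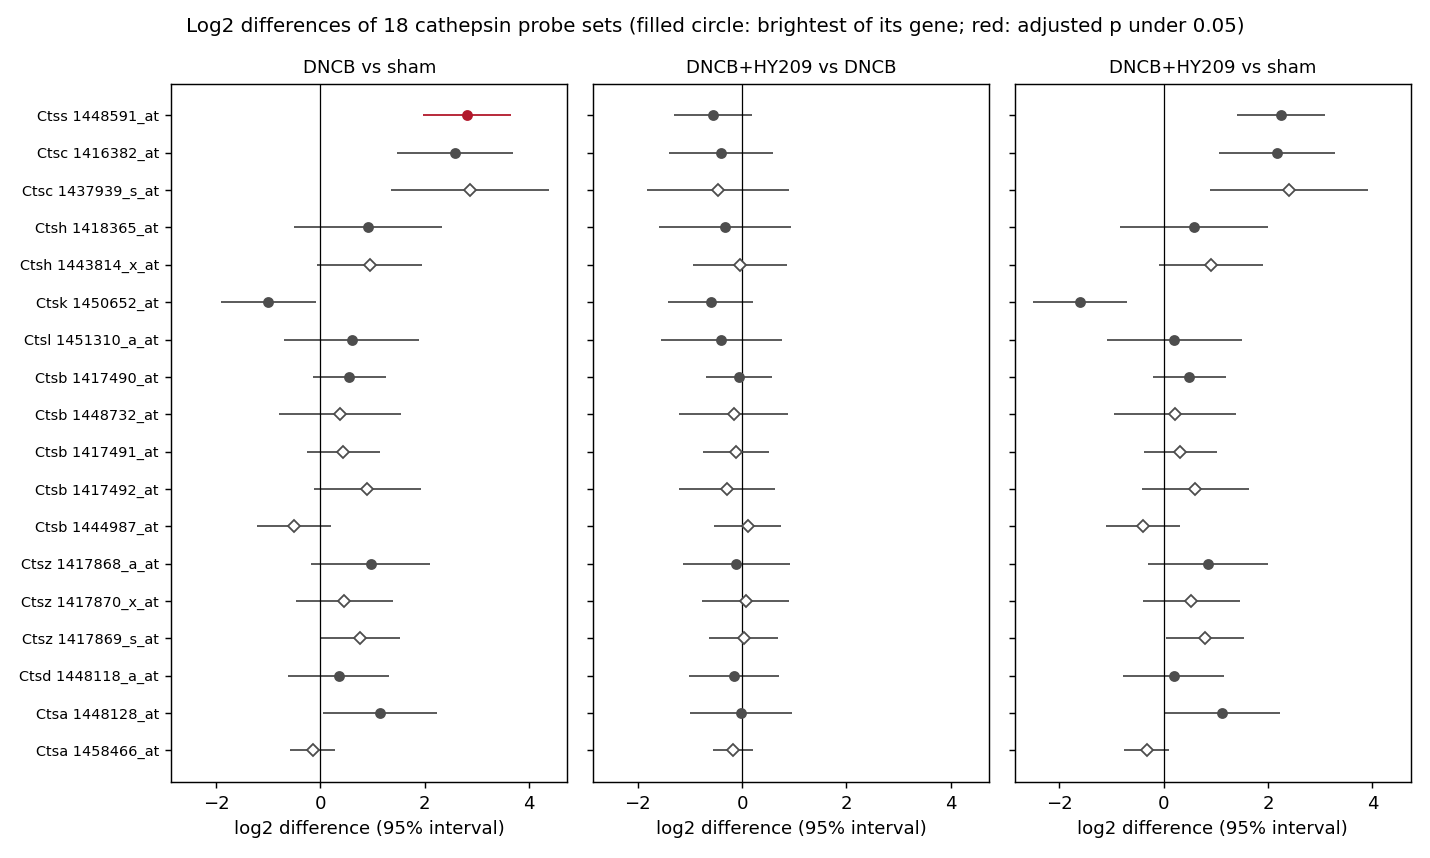
Log2 differences with 95% intervals of the 18 cathepsin probe sets tested, for DNCB against sham, DNCB+HY209 against DNCB and DNCB+HY209 against sham. Filled circles are the brightest probe set of a gene, open diamonds its others, and red marks an adjusted p under 0.05. Ctss in DNCB against sham, at 2.81, is the only red point, and all intervals in the middle panel include 0.

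Counted over the 18 probe sets, 15 had a mean above sham and 3 below it in DNCB skin, with a median log2 difference of 0.68 beside 0.11 over all probe sets tested. Without Ctsc 1437939_s_at, which entered the test only through the DNCB groups, 14 of 17 were above sham with a median of 0.60. The arrays did not overlap for 6 probe sets that were higher in DNCB (both of Ctsc and of Ctsh, Ctss and Ctsa 1448128_at) and for 1 that was lower (Ctsb 1444987_at), where 21.0% of all probe sets were higher and 12.6% lower without overlap. Leaving out Ctsc 1437939_s_at, the higher ones numbered 5 of 17. In DNCB+HY209 against sham limma called 0 of 18, beside 0.267% of all probe sets called. At an unadjusted p under 0.05 there were 5 higher and 1 lower, beside 12.9% of all probe sets higher and 5.7% lower. There 6 cathepsin probe sets were higher and 2 lower without overlap, beside 26.7% and 14.2% of all probe sets. The lower ones were Ctsk and Ctsa 1458466_at. Without Ctsc 1437939_s_at here too, 5 of 17 were higher without overlap and 4 of 17 were higher at an unadjusted p under 0.05. Both comparisons use the same sham arrays, so their values are not independent.

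DNCB+HY209 skin was set against DNCB skin to ask what the gel did to the cathepsins of inflamed skin. All 9 genes had a mean log2 signal below that of DNCB, with differences from -0.61 for Ctsk to -0.020 for Ctsa and a median of -0.33, beside 0.03 over all genes. Over the probe sets, 15 were below and 3 above. None of these differences passed the test: the adjusted p was 0.9999 for each, and 0% of all probe sets were called (of the 24675, 74 were higher and 233 lower, 307 together, by an unadjusted p under 0.05). The arrays of both groups overlapped for all 18 cathepsin probe sets, where 2.83% of all probe sets were higher and 2.04% lower without overlap. The intervals over the 9 genes reached from -1.60 to 0.96, so differences of up to that size could not be told from 0 with 3 arrays a group.

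Most of the cathepsins, though not all, shared their highest or lowest array within a group. DNCB array 2 had the highest signal of its group for 9 of 9 genes, whereas 51.5% of all probe sets tested were highest there, and DNCB array 3 had the lowest for 8 of 9, against 33.5% of all. In DNCB+HY209, array 3 was the highest for 7 of 9 genes (46.5% of all) and array 1 the lowest for 7 of 9 (47.1%). Ctsz was highest on array 1 there and Ctsc on array 2. In sham, array 1 was the higher for 7 of 9 genes (55.8% of all) and the lower for Ctsk and Ctss. These shares count all probe sets tested, whereas each cathepsin counts by its brightest probe set. The mean log2 signal of the 9 genes was 7.47, 7.93 and 8.46 on the DNCB+HY209 arrays, 8.20, 8.92 and 7.63 on the DNCB arrays, and 7.39 and 7.14 on the sham arrays. Spike-in levels on the same arrays were 11.26, 10.36 and 10.30 in DNCB+HY209, 11.09, 9.67 and 11.21 in DNCB, and 11.35 and 12.01 in sham. The array with the highest cathepsin mean thus had the lowest spike-in level. Gapdh ratios were 3.24, 2.62 and 2.31 in DNCB+HY209, 2.79, 2.10 and 7.35 in DNCB, and 4.46 and 2.81 in sham. In both DNCB groups the array with the highest cathepsin mean had the lowest ratio, while in sham it had the higher one. The part of either measure was not tested. Without DNCB array 2 and sham array 2, the differences between DNCB+HY209 and DNCB were above 0 for Ctsa (0.27), Ctsb (0.095), Ctsd (0.19), Ctsh (0.098), Ctsl (0.19) and Ctsz (0.31), and these values were the same with only DNCB array 2 left out. Without DNCB+HY209 array 1 they were above 0 for Ctsa (0.27), Ctsb (0.025), Ctsc (0.10), Ctsd (0.037) and Ctsh (0.32). The common sign of the 9 genes thus depended on each of these arrays, whereas Ctss and Ctsk stayed below 0 without each.

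**Figure D3:**
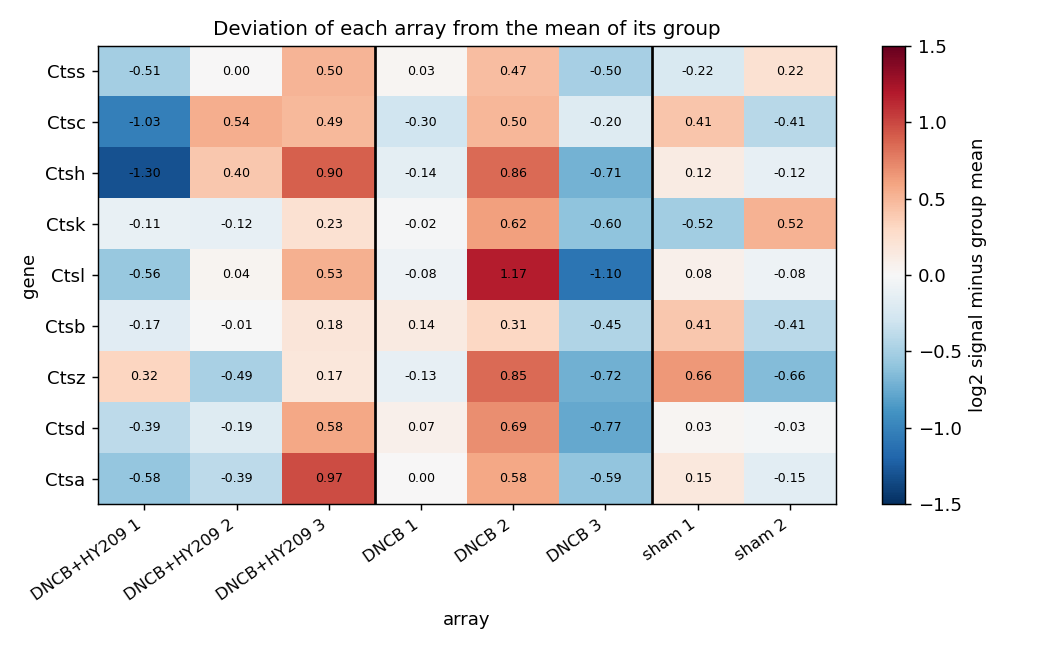
Deviation of the log2 signal of each cathepsin gene (rows) on each array (columns) from the mean of its group, in DNCB+HY209, DNCB and sham. Red is above and blue below the group mean. The column of DNCB array 2 is above its group mean for all 9 genes, by up to 1.17 for Ctsl.

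The genes whose log2 signals were most like those of each cathepsin over the 8 arrays were found among 12419 others, as a description without a test, since all points share the same arrays and groups. For Ctss these were S100a9 (r = 0.996), a calcium-binding alarm protein of neutrophils and keratinocytes, Kif26b (0.992) and Eva1b (0.991). Ctsc was most like Parp12 and Il13ra1 (0.993 each) (Il13ra1 encodes a receptor chain for IL-13) and Casp1 (0.990), the protease of inflammasomes. For Ctsk they were Fstl3 (0.958), Efemp1 (0.954) and Cpz (0.939), and for Ctsh Vwa5a (0.994), Zdhhc7 (0.993) and Cr1l (0.987). The highest r was 0.986 for Ctsa (Gramd1a), 0.988 for Ctsb (Tbpl1), 0.989 for Ctsd (Mpzl1), 0.984 for Ctsl (Myh8) and 0.969 for Ctsz (2700081O15Rik).

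Among the inhibitors of cathepsins, 7 of the 11 cystatin and stefin genes with a probe set were tested. Stfa3, a stefin that blocks cysteine cathepsins, rose in both DNCB groups. It averaged 12.73 ± 0.81 in DNCB+HY209 (SD, n = 3), 12.83 ± 0.08 in DNCB (n = 3) and 6.58 ± 0.58 in sham (n = 2), with log2 differences from sham of 6.15 (adjusted p = 0.000605) in DNCB+HY209 and 6.25 (adjusted p = 0.000522) in DNCB. The median of the 7 genes was 0.91 in DNCB against sham. The other 6 did not pass the test, with differences from -0.24 for Cst3 to 3.22 for Stfa2l1 (adjusted p = 0.0748). Of the 7, 4 had an unadjusted p under 0.05, beside 16.4% of all genes, and limma called 157 of all 12420 genes. Both sham signals of Fetub and Stfa2l1 lay below the array medians, so these genes entered the test only through the DNCB groups. The median, which is the value of Fetub, is therefore approximate. In DNCB+HY209 against DNCB limma called 0 of 7, with 0 at an unadjusted p under 0.05, and their median was -0.20.

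No other gene list of the pathway held a call in any comparison. In DNCB against sham 16.4% of all genes had an unadjusted p under 0.05. Of 12 genes for the sorting and processing of cathepsins, 0 passed in DNCB against sham, with a median log2 difference of 0.32 and 3 at an unadjusted p under 0.05. Both sham signals of Gnptg, which was not among these 3, lay below the array medians. It entered the test only through the DNCB groups, so this median is approximate. Gga2, a sorting adaptor, had a difference of -0.67 (adjusted p = 0.233) and Igf2r, a mannose 6-phosphate receptor, one of 0.80 (adjusted p = 0.253). For 21 other lysosomal hydrolases the median was 0.29 and 6 had an unadjusted p under 0.05, with Manba, the beta-mannosidase, at 1.62 (adjusted p = 0.155) and Neu1, a sialidase, at 0.92 (adjusted p = 0.203). Both sham signals of Manba and Neu1 lay below the array medians, as did those of Gusb and Galns. Thus 4 of these 6 genes entered the test only through the DNCB groups and their differences are approximate. The same holds for Glb1, which was not among the 6, so the median of the 21 hydrolases is approximate too. For 21 genes of the lysosomal membrane and proton pump the median was 0.41, with 2 at an unadjusted p under 0.05. The pump subunits Atp6v1b2 and Atp6v0b had 1.01 (adjusted p = 0.257) and 0.78 (adjusted p = 0.262).

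The lysosome transcription factors, of which 3 were tested, had differences in DNCB against sham of -1.60 for Mitf (adjusted p = 0.152) and 0.71 for Tfe3 (adjusted p = 0.307). Genes of class II presentation, the pathway that cathepsin S serves, had a median of 0.62 over 5 genes. H2-DMa was at 0.91 (adjusted p = 0.179) and H2-Ab1 at 1.15 (adjusted p = 0.234). The granule proteases that cathepsin C activates were mostly dim, since 3 of 10 were tested, and Elane had a difference of -0.29 (adjusted p = 0.555) and Gzma of 0.24 (adjusted p = 0.638). Among 5 further cathepsins 4 were tested, and Ctse, an aspartic protease of endosomes, had log2 differences from sham of 2.34 in DNCB+HY209 (adjusted p = 0.0974) and 1.59 in DNCB (adjusted p = 0.191). The sham signals of Ctse and Gzma also lay below the array medians, and the differences of these genes are approximate too. With limma's 0 calls in DNCB against sham, the number at an unadjusted p under 0.05 was 2 for the transcription factors, 2 for the class II genes, 0 for the granule proteases and 1 for the further cathepsins. Of the 8 placental cathepsin genes, 0 were bright enough to be tested. Between DNCB+HY209 and DNCB limma called 0 genes of these lists, with 0 at an unadjusted p under 0.05, and the median log2 differences were 0.0040 for sorting and processing, -0.015 for the hydrolases, -0.032 for the membrane and pump genes, 0.24 for the transcription factors, -0.073 for the class II genes and 0.18 for the 4 further cathepsins. All 4 of the further cathepsins had a mean above DNCB, unlike the 9 genes described above, with 0.75 for Ctse and 0.22 for Ctsw. Lipa, the lysosomal acid lipase, had -0.36 there and H2-DMa, which loads peptide onto class II molecules, -0.22 (adjusted p = 0.9999 for each).

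Macrophage and monocyte markers were read beside the cathepsins, which these cells express. The mean log2 signal of 13 such genes was 5.45 to 6.15 in DNCB+HY209, 5.66 to 6.75 in DNCB and 5.26 to 5.49 in sham, and 0 of them were below the array median on all arrays. Their median log2 difference was 1.14 in DNCB against sham, with 0 called and 7 at an unadjusted p under 0.05 (16.4% of all genes), and -0.58 in DNCB+HY209 against DNCB, with 0 called and 2 at an unadjusted p under 0.05 (1.3% of all genes). Both sham signals of Adgre1, Aif1 and Cd68 lay below the array medians, and 1 of the 7 was among these. They entered the test only through the DNCB groups, so that count and the median of 1.14 are approximate. Endothelial markers, 8 genes, averaged 5.03 to 5.59 in DNCB+HY209, 5.54 to 6.39 in DNCB and 4.46 to 4.72 in sham. All 8 were higher in DNCB than in sham without overlap, beside 2888 of all 12420 genes, with a median of 1.54. Cdh5, the cadherin of endothelial junctions, rose by 2.20 (adjusted p = 0.0275). Emcn and Vwf were below the medians on both sham arrays, so they entered the test only through the DNCB groups. The count and the median include them and are approximate. All 8 had a mean below DNCB in DNCB+HY209, with a median of -0.69, 0 called by limma and 3 at an unadjusted p under 0.05. Adipocyte markers, 4 of 6 tested, had a median of -1.23 in DNCB against sham with 0 called and 2 at an unadjusted p under 0.05. Of 9 skeletal muscle markers only 1 had an unadjusted p under 0.05 there. This was Myh2, a myosin heavy chain, which rose by 4.45 (adjusted p = 0.00743). The other muscle markers, from -1.15 for Pvalb to 0.90 for Atp2a1, overlapped sham. Hair follicle markers, 12 genes, had medians of -1.75 in DNCB against sham and 0.84 in DNCB+HY209 against DNCB, with 3 and 0 at an unadjusted p under 0.05. Their mean differed widely within groups, at 6.46 to 8.87 in DNCB+HY209, 5.53 to 7.97 in DNCB and 6.78 to 9.65 in sham. Of the neutrophil markers 5 of 8, and of the dendritic and Langerhans cell markers 3 of 8, were bright enough to be tested. In DNCB against sham the neutrophil ones ran from -0.26 for Camp to 1.71 for Mmp9, with 2 at an unadjusted p under 0.05. The dendritic ones ran from -0.76 for Zbtb46 to 0.74 for Itgax, also with 2. Mast cell markers, 3 of 7 tested, and T and NK cell markers, 6 of 10 tested, had 0 there. No gene of these lists passed the test. The part of these cells in the levels of Ctss and Ctsc was not tested.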

How the data were processed

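Total RNA of frozen dorsal skin was amplified from the 3' end, biotin-labelled and hybridised to 8 Affymetrix arrays, 1 per sample, per the labels' protocols. A 430A array is named there, but the 45101 probe sets of the table are those of the larger array of its generation, whose annotation was used. The deposited values were signals of probe sets on a log2 scale, judged by their range. Affymetrix Expression Console and MAS5 appear in the submitters' processing notes. How the authors normalized arrays to each other is not stated in the sources used here.

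Values were used as deposited. Control probe sets (64) and those above the array median on fewer than 2 arrays were left out, and 24675 were tested with limma 3.58.1 in R 4.3.3 (lmFit and a trended eBayes) in 1 two-sided fit of all 8 arrays, with Benjamini-Hochberg adjustment over all probe sets and a threshold of 0.05. A gene was represented by its brightest probe set. Probe sets ending in _s_at or _x_at can match transcripts of other genes. The fit was checked on simulated data. The cathepsins, the 9 pathway lists and the 11 marker lists were chosen with earlier results of these data known. Of each pathway list, up to 3 genes past the threshold, or else the 2 with the largest moderated t, were named, and for each cathepsin the 3 genes most like it. Alternatives were another scaling, filter, probe set rule, variance model or covariate, fitting just the compared groups, blocking on replicate number, and leaving out each array. A fit without DNCB array 2 and sham array 2 was added after seeing the data. The number of arrays limits the precision. Figures were drawn with Python 3.11.15 and matplotlib 3.10.9.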

Additional observations from a re-analysis of the deposited data

How the results depend on the processing

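With 2 or 3 arrays a group, few calls were stable. In DNCB against sham the number of probe sets called, 236 of all and 1 cathepsin as reported, was 366 and 2 under quantile normalization, 142 and 1 with arrays centred on their median, 20 and 0 with a spike-in covariate, 519 and 3 with a Gapdh ratio covariate, and 6 and 0 without DNCB array 2 and sham array 2. Cathepsin calls numbered 2 with a stricter filter, 2 with only the brightest probe set of each gene and 3 with only the groups compared. Leaving out 1 array gave 14 to 432 calls in all and 0 to 3 of cathepsins. In DNCB+HY209 against sham the 66 calls of all probe sets and 0 of cathepsins were 141 and 1 under quantile normalization, 32 and 0 with centred arrays, 9 and 0 with the spike-in covariate, 9 and 0 without the 2 arrays, and 24 in all both with probe sets averaged per gene and with only the groups compared. There 1 cathepsin was called with the brightest probe sets and 2 with the Gapdh covariate, and leaving out 1 array gave 6 to 354 calls in all and 0 to 3 of cathepsins. DNCB+HY209 against DNCB had 0 calls under every alternative run. The cause of these shifts was not tested.

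The arrays of the groups share replicate numbers, but the deviations of same-numbered arrays from their group means correlated between -0.62 and 0.24, so the numbers were not taken to pair samples. With the replicate block 20 probe sets were called in DNCB against sham, 0 of them cathepsins, and 8 in DNCB+HY209 against sham.

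Quantile normalization moved the median of all probe sets in DNCB+HY209 against sham to 0.0048, where the deposited values gave 0.15. There Ctsb 1448732_at had -0.094, Ctsd -0.029 and Ctsl -0.11. Signs also turned under covariates. With the spike-in level, log2 differences in DNCB against sham were 0.011 for Ctsa 1458466_at, -0.53 for Ctsb 1448732_at, -0.034 for Ctsb 1417491_at, -0.32 for Ctsd, -0.27 for Ctsh 1418365_at and -0.48 for Ctsl, and in DNCB+HY209 against sham -0.70, -0.16 and -0.28 for Ctsb 1448732_at, 1417491_at and 1417492_at, 0.055 for Ctsb 1444987_at, -0.49 for Ctsd, -0.62 for Ctsh 1418365_at and -0.89 for Ctsl. With the Gapdh ratio they were -0.15 for Ctsb 1448732_at, -0.10 for Ctsd and -0.21 for Ctsl in DNCB+HY209 against sham, and -0.15 and -0.087 for Ctsz 1417870_x_at and 1417869_s_at in DNCB+HY209 against DNCB.

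Without DNCB array 2 and sham array 2, DNCB against sham gave -0.011 and -0.25 for Ctsb 1417490_at and 1448732_at, -0.025 for Ctsd, -0.066 for Ctsl, and -0.12 and -0.077 for Ctsz 1417868_a_at and 1417870_x_at. DNCB+HY209 against DNCB then gave 0.27 for Ctsa 1448128_at, 0.095, 0.39, 0.19 and 0.14 for Ctsb 1417490_at, 1448732_at, 1417491_at and 1417492_at, -0.019 for Ctsb 1444987_at, 0.19 for Ctsd, 0.098 and 0.22 for Ctsh 1418365_at and 1443814_x_at, 0.19 for Ctsl and 0.31 for Ctsz 1417868_a_at.

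With 1 array left out at a time, Ctsb 1448732_at ran from -0.18 to 0.89 in DNCB against sham, and in DNCB+HY209 against sham Ctsd ran from -0.10 to 0.38 and Ctsl from -0.061 to 0.48. In DNCB+HY209 against DNCB the ranges were -0.51 to 0.27 for Ctsa 1448128_at, -0.29 to 0.095 for Ctsb 1417490_at, -0.68 to 0.39 for 1448732_at, -0.34 to 0.19 for 1417491_at, -0.68 to 0.14 for 1417492_at and -0.11 to 0.39 for 1444987_at. For Ctsc they were -0.68 to 0.10 (1416382_at) and -0.87 to 0.30 (1437939_s_at), for Ctsd -0.54 to 0.19, and for Ctsh -0.78 to 0.32 (1418365_at) and -0.38 to 0.40 (1443814_x_at). Ctsl ran from -0.95 to 0.19 and Ctsz from -0.47 to 0.31 (1417868_a_at), -0.34 to 0.37 (1417870_x_at) and -0.21 to 0.25 (1417869_s_at). Ctss and Ctsk kept the sign of their difference in all 3 comparisons under every alternative run.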
